A study of Mus musculus with 6 samples.

Results

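The S100 genes encode small calcium-binding proteins, and 8 of them were followed here through the livers of mice without and with colorectal tumors. The genes S100a1, S100a4, S100a6, S100a8, S100a9, S100a10, S100a11 and S100a13 were chosen by symbol and are 8 of the 20140 genes in the deposited count table. All 8 passed edgeR's filter on low counts, which 16370 genes passed. The table lists 11 genes of the S100 family in all. The other three, S100a14, S100a16 and S100g, are described after them.

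An S100 protein carries a pair of EF-hands, which are loops that bind calcium, and most S100 proteins work as dimers that change shape on calcium binding and then grip a partner protein. Inside cells these partners include annexins, cytoskeletal motors and calcium pumps. Some S100 proteins are also released and act as alarm signals outside the cell. S100A8 and S100A9 pair as calprotectin, one of the most abundant proteins of the neutrophil cytosol, and signal through the receptors TLR4 and RAGE. In tumor-bearing mice they are known for marking organs to which myeloid cells are drawn, and S100A4, also called metastasin, is known from motile tumor cells and stromal cells.

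Bulk RNA was sequenced from 6 livers taken on day 21, with 2 livers in each of 3 groups. Sham mice underwent the operation with PBS alone. The groups labelled intra-C and intra-S carried CT26, a mouse colorectal carcinoma line from BALB/c mice, the strain given for both models. The labels do not spell out these names. From the models that the study describes, intra-C was read as orthotopic implantation into the cecum, the model of the premetastatic niche (PMN), and intra-S as injection into the spleen, the model of liver metastasis. Group and route of implantation therefore changed together, and all mice were taken at the same day. Polyadenylated RNA of all liver cells was sequenced. A higher value in such a bulk sample can come from more cells of a type or from more RNA per cell, and these cannot be told apart.

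The livers had between 32838321 and 43368309 counts, and 3 counts, the limit for a gene with no count, came to at most 0.0928 CPM (counts relative to the library total), for counting error only. Hepatocyte markers were high in every liver, with sums between 107159 and 183388 CPM over 7 genes. The intra-S livers were less alike than those of the other groups, with a median absolute log2 difference over all tested genes of 0.56 between them, against 0.29 between the intra-C livers and 0.21 between the sham livers. CPM values use library totals scaled by edgeR's TMM method and compare 1 gene between livers. TPM values are per gene length and compare genes within a liver.

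The 8 genes lie on chromosome 3 of GRCm38 (mm10), in a dense group and a distant pair. The dense group spans 184688 bases and holds S100a1 (90511034 to 90514330, minus strand), S100a13 (90514233 to 90524581), S100a4 (90603770 to 90606045), S100a6 (90612894 to 90614414), S100a8 (90669071 to 90670034) and S100a9 (90692630 to 90695721, minus strand). S100a11 (93520496 to 93526288) and S100a10 (93555117 to 93564645) follow after a gap of 2824774 bases and lie 28828 bases apart. Genes without a strand named here are on the plus strand. S100a1 and S100a13 share 98 bases on opposite strands. The kit named in the labels does not mark strand, so that reads from these bases cannot be assigned to 1 of the 2 genes by strand.

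RefSeq promoter sequence of GRCm38.p6 was found for 7 of the 8 genes, the exception being S100a10. The 250 bases before the start are shown for S100a8 and S100a9, whose RNA differed most between sham and tumor-bearing livers, for S100a4, which was high in a single liver, and for S100a11, which was higher in both tumor groups. Capitals mark a TATA box (TATAAA) in S100a4 and S100a8, a C/EBP motif (TTGCNNAA) in S100a9 and AP-1 motifs (TGANTCA) in S100a11. C/EBP proteins are factors of myeloid cells and hepatocytes, and AP-1 joins Fos and Jun proteins.
S100a8: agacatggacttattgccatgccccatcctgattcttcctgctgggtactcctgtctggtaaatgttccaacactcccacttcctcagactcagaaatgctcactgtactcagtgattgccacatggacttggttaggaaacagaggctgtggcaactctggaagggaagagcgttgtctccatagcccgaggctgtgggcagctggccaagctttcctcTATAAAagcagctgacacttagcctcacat
S100a9: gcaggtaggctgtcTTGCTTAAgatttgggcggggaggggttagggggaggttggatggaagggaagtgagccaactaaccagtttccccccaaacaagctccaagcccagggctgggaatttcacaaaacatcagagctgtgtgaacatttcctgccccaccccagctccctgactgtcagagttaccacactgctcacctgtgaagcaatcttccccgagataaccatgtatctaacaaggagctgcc
S100a4: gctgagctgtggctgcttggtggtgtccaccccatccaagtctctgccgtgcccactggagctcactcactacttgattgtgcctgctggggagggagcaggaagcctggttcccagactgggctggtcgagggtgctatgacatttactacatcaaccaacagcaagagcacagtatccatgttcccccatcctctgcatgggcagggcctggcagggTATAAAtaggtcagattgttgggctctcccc
S100a11: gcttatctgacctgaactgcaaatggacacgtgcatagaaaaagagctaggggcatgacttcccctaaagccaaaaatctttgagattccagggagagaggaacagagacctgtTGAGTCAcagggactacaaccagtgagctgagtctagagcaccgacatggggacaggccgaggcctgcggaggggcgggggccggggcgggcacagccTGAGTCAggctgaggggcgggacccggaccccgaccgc

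The motifs were searched on both strands of windows from 250 bases before to 50 bases after the start. TATAAA ended 25 bases before the start in S100a8 and 26 before it in S100a4, and in S100a9 it covered the first 6 bases after the RefSeq start. The C/EBP motif of S100a9 lay 236 to 229 bases before the start. The AP-1 motifs of S100a11 lay 136 to 130 and 38 to 32 bases before it. A STAT motif (TTCNNNGAA) was found in 0 of the 7 windows. Of all 32851 windows of the same length, 13.6% held TATAAA, 10.8% the C/EBP motif, 7.81% the AP-1 motif and 8.30% the STAT motif. A match of these short letters describes the sequence and shows no binding.

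In the sham livers, S100a1 was the most abundant of the 8 genes per length, with 213 and 215 TPM. It was followed in both sham livers by S100a10 (48.9 and 78.6 TPM), S100a13 (22.1 and 19.0), S100a11 (12.9 and 15.7) and S100a9 (6.56 and 9.21). S100a6 and S100a8 changed places between the sham livers, and S100a4 came last with 0.707 and 1.13 TPM. In all 4 livers of tumor-bearing mice, S100a9 stood first and S100a8 second, and S100a1 ranked next in the intra-C livers and in intra-S liver 1. In intra-S liver 2, S100a4 ranked next with 160 TPM, although it was the lowest of the 8 in each other liver.

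**Figure D1:**
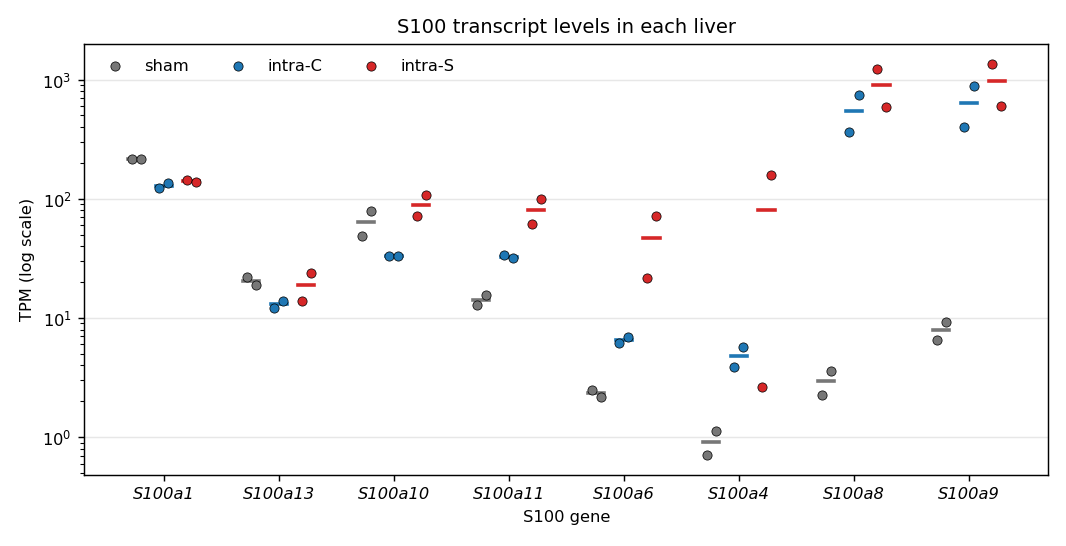
TPM of each S100 gene on a log axis, with a point per liver and a bar at the group mean of 2 livers (grey sham, blue intra-C, red intra-S). S100a8 and S100a9 lie below 10 TPM in the sham livers and between 360 and 1361 TPM in the livers of tumor-bearing mice, and the red points of S100a4 are 2.63 and 160 TPM.

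The first comparison asked which S100 genes differed in livers of the PMN model from sham livers. S100a8, S100a9 and S100a11 rose in the intra-C livers (edgeR's quasi-likelihood test, adjusted p under 0.05 over all tested genes), 0 of the 8 fell, and 5 were not called. Of all tested genes, 4.92% were called higher and 2.38% lower, 806 and 389 genes. With library totals not scaled by TMM, 569 genes were higher and 801 lower, because all differences then shifted by -0.26 on the log2 scale. Under that scaling S100a8 and S100a9 were still called higher, S100a11 was not and S100a1 was called lower. The median log2 fold change of the 8 genes was 1.53, against 0.01 over all tested genes. The livers of the groups did not overlap for any of the 8, with 5 genes higher and 3 lower in intra-C. Such separation was common with 2 livers per group, since 34.4% of all tested genes were higher and 34% lower without overlap.

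In the intra-S livers, read as the model of liver metastasis, S100a6 joined S100a8, S100a9 and S100a11. Thus 4 of the 8 rose and 0 fell, against 6.78% of all tested genes called higher and 3.95% called lower (1110 and 646 genes). Without TMM scaling these were 838 and 1115 genes, with a shift of -0.28, and the same 4 S100 genes were called. The median log2 fold change of the 8 genes was 3.69, against 0.04 over all tested genes. Both tumor groups were compared with the same sham livers, and with either sham liver left out edgeR called 0 of the 8 genes and 0 genes in all, in both comparisons.

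**Figure D2:**
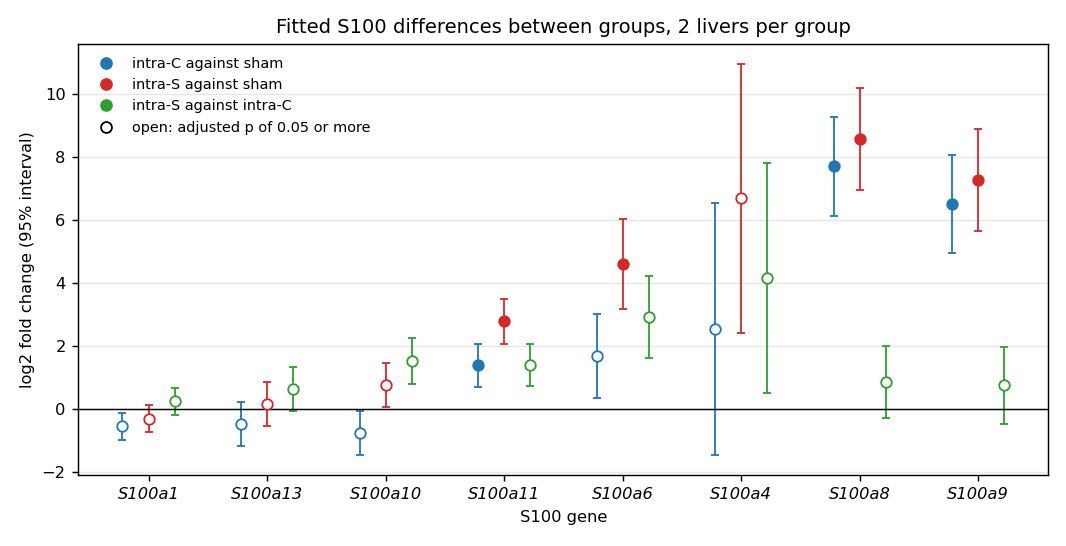
Fitted log2 fold change of each S100 gene with its 95% interval from edgeR's quasi-likelihood fit over 6 livers, for intra-C against sham (blue), intra-S against sham (red) and intra-S against intra-C (green); filled points have an adjusted p under 0.05. The filled points are S100a8, S100a9 and S100a11 in blue and the same genes with S100a6 in red, and each green point is above 0 and open.

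S100a8 and S100a9, the subunits of calprotectin, moved furthest among the 8. S100a8 had 0.394 and 0.634 CPM in sham, 74.0 and 142 CPM in intra-C and 272 and 121 CPM in intra-S. The lowest liver of a tumor-bearing mouse was thus far above the higher sham liver, while the intra-S livers lay on either side of intra-C liver 2. The ratio of its mean CPM to that in sham was 210 in intra-C and 382 in intra-S. The fitted log2 fold changes were 7.70 (standard error 0.65, adjusted p = 0.00640) and 8.56 (standard error 0.67, adjusted p = 0.00469). The sham values rest on 16 and 28 counts. S100a9 had 1.53 and 2.15 CPM in sham, 109 and 226 CPM in intra-C and 403 and 165 CPM in intra-S. Its livers took the same order as those of S100a8. The log2 fold change of S100a9 was 6.51 in intra-C (standard error 0.65, adjusted p = 0.00738) and 7.27 in intra-S (standard error 0.67, adjusted p = 0.00578). Both genes were called in both comparisons in all 8 alternative fits that kept both livers of each group compared. Without intra-S liver 1 the log2 fold changes in intra-S were 7.86 for S100a8 and 6.49 for S100a9, and without intra-C liver 2 that of S100a9 in intra-C was 5.91 (adjusted p = 0.0493). Without sham liver 1 or 2 their log2 fold changes were between 6.29 and 8.94, with adjusted p between 0.0698 and 0.120.

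The share of S100a8 among the calprotectin counts was lower in the sham livers than in the others. S100a8 gave 20.5% of the summed S100a8 and S100a9 counts in sham liver 1 (exact binomial 95% interval 12.2% to 31.2%) and 22.8% in sham liver 2 (15.7% to 31.2%). In the intra-C livers it gave 40.4% (39.2% to 41.5%) and 38.5% (37.7% to 39.4%), and in the intra-S livers 40.3% (39.6% to 40.9%) and 42.2% (41.3% to 43.1%). The intervals of the sham livers did not reach those of the other livers, although they cover counting error only. Per length, the S100a9 level was 2.90 and 2.54 times that of S100a8 in the sham livers and between 1.03 and 1.19 times in the livers of tumor-bearing mice. This ratio was described and not tested between groups.

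The sum of the 8 genes was 309 and 344 TPM in the sham livers, 971 and 1845 TPM in the intra-C livers and 2902 and 1779 TPM in the intra-S livers. S100a8 and S100a9 together made up 2.85% and 3.73% of it in the sham livers, 78.2% and 87.8% in the intra-C livers and 89.1% and 66.3% in the intra-S livers. Among all 20140 genes listed, S100a9 ranked 6560 and 5555 by TPM in the sham livers, 259 and 123 in the intra-C livers and 86 and 194 in the intra-S livers. The other 6 genes together had 301 and 331 TPM in the sham livers and 212 and 226 TPM in the intra-C livers. They reached 316 TPM in intra-S liver 1 and 599 TPM in intra-S liver 2. TPM was not scaled by TMM, so that these sums do not measure changes between livers exactly. On log2(TPM + 1), the median difference from sham over all tested genes was -0.10 in intra-C and -0.15 in intra-S. On TMM-scaled CPM it was 0.00 and 0.01.

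**Figure D3:**
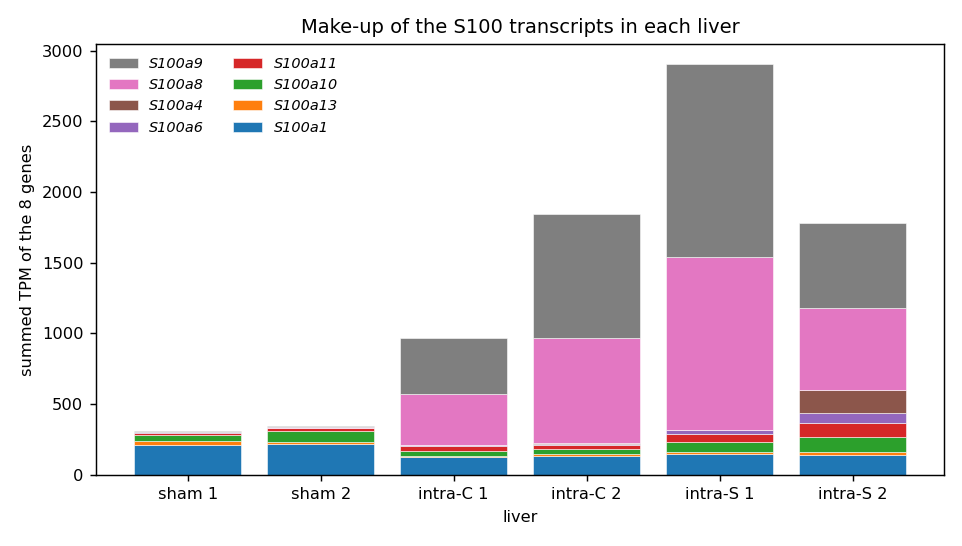
Summed TPM of the 8 S100 genes in each of the 6 livers as stacked bars, with a color per gene. The bars of the sham livers are mostly S100a1 and reach 309 and 344 TPM, the others are mostly S100a8 and S100a9, and intra-S liver 2 has the thickest segments of S100a4, S100a6, S100a10 and S100a11.

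Markers of neutrophils, like calprotectin, were higher in the livers of tumor-bearing mice than in the sham livers. Of 12 neutrophil markers, 11 were called higher in intra-C and 12 in intra-S, and their summed level was 5.35 and 6.43 CPM in sham, 125 and 301 CPM in intra-C and 457 and 165 CPM in intra-S. For these and the other marker counts given here, the share of all tested genes called higher was 4.92% in intra-C and 6.78% in intra-S. Camp, Elane and Mpo, all granule proteins, had 0 counts in both sham livers. The order of the livers in this sum, to which Ngp gave 192 CPM in intra-S liver 1, was that of S100a8 and S100a9. Not every marker took that order. Elane, Mpo and Csf3r were highest in intra-C liver 2 (13.9, 36.0 and 15.6 CPM) and lower in intra-S liver 1 (7.90, 19.3 and 14.3 CPM). Cxcr2, Mmp8, Retnlg and Hdc were highest in intra-S liver 1 but did not rank the other livers of tumor-bearing mice as S100a8 did. Mmp9, Ly6g, Camp, Ltf and Ngp kept the order of S100a8 in the livers of tumor-bearing mice. Over the 6 livers and among 9274 candidate genes, the patterns nearest to S100a8 were those of Camp and Ltf, with root mean square differences of 0.28 and 0.48 on the log2 scale. Those nearest to S100a9 were Cd177 and Mmp8, with 0.29 and 0.32. These likenesses rest in part on the prior count of 2, which sets the sham values of genes with few or no counts there. Camp and Cd177 had 0 counts in both sham livers, and Ltf and Mmp8 were at or below 0.226 CPM. Camp encodes cathelicidin, Ltf lactoferrin, Mmp8 neutrophil collagenase and Cd177 a neutrophil surface protein. Monocyte and macrophage markers (5 of 8 called higher in both comparisons) and Kupffer cell markers (5 of 5 in intra-C and 4 of 5 in intra-S) were also higher, and the summed Kupffer markers reached 844 CPM in intra-C liver 2, against 375 CPM in intra-S liver 1, where S100a8 was highest. The part of these cells in the levels of S100a8 and S100a9 was not tested.

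Among receptors of extracellular S100 proteins, 2 of 9 rose in intra-C and 3 of 9 in intra-S, and 0 fell, beside 4.92% and 6.78% of all tested genes called higher and 2.38% and 3.95% called lower. The median log2 fold changes of the 9 were 0.81 and 1.70. Tlr4, the receptor of S100A8 and S100A9 that also senses bacterial lipopolysaccharide, had 2.12 and 3.51 CPM in the sham livers and between 7.12 and 11.1 CPM in those of tumor-bearing mice (log2 fold changes of 1.88, adjusted p = 0.0349, and 1.70, adjusted p = 0.0353). Cd14, its co-receptor, rose by log2 fold changes of 4.21 and 4.34 (adjusted p = 0.00702 and 0.00578). Mcam, an adhesion molecule that binds S100A8 and S100A9, was called in intra-S alone, where its log2 fold change was 2.08 (adjusted p = 0.0260). In intra-C it was 1.35 (adjusted p = 0.0847), and in intra-S against intra-C 0.73 (adjusted p = 0.436). Ager, which encodes RAGE, lay between 0.127 and 1.05 CPM in all livers and was not called.

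S100a11, whose protein binds annexin A1, was higher in both tumor groups at moderate levels. RefSeq also lists a pseudogene, S100a11-ps, and reads that fit both copies would be missing from counts of uniquely mapped reads, so that the level is uncertain to that extent. It had 2.88 and 3.53 CPM in sham, 8.89 and 7.86 CPM in intra-C and 17.6 and 26.4 CPM in intra-S. Its 3 groups did not overlap, in the order sham, intra-C, intra-S. Of all tested genes, 34.4% had intra-C above sham without overlap, 30.4% intra-S above sham and 21.8% intra-S above intra-C. The share with all 3 groups in this order was not counted. On the log2 scale it rose by 1.38 in intra-C (standard error 0.28, adjusted p = 0.0394) and of 2.78 in intra-S (standard error 0.29, adjusted p = 0.00670). The call in intra-C was lost without TMM scaling (1.12, adjusted p = 0.0738), with limma on log2(TPM + 1) (1.15, adjusted p = 0.0547) and without any 1 of the intra-C and sham livers (1.25 to 1.54, adjusted p 0.156 to 0.284). The call in intra-S was lost without either sham liver (2.64 and 2.93, adjusted p = 0.0977 and 0.0893).

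S100a10 encodes p11, which differs from other S100 proteins in holding its active shape without calcium and which joins annexin A2 in a complex that binds plasminogen at the cell surface. It was the only one of the 8 that lay below both sham livers in both intra-C livers and above both sham livers in both intra-S livers. Its levels were 14.1 and 22.7 CPM in sham, 11.4 and 10.5 CPM in intra-C and 26.2 and 36.8 CPM in intra-S. Against sham, the log2 fold change was -0.75 in intra-C (standard error 0.29, adjusted p = 0.164) and 0.77 in intra-S (standard error 0.29, adjusted p = 0.137), and neither was called with all livers. Without intra-S liver 1 the latter was 1.00 (adjusted p = 0.0459). Between the tumor groups it was 1.53 (95% interval 0.81 to 2.24, adjusted p = 0.285). Of all tested genes, 287 (1.75%) had livers in this order. S100a10 and S100a11 lie next to each other among the 8 genes on the chromosome, yet only S100a11 lay above the sham livers in intra-C.

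Annexins and other partners were counted with them. Of 14 tested, 3 rose and 0 fell in intra-C, and 5 rose and 1 fell in intra-S, beside the same shares of 4.92% higher and 2.38% lower over all tested genes in intra-C and 6.78% and 3.95% in intra-S. The median log2 fold changes of the 14 were 0.59 and 0.91. Anxa1, the partner of S100A11, had 2.78 and 3.64 CPM in sham, 20.8 and 31.5 CPM in intra-C and 59.7 and 55.2 CPM in intra-S (log2 fold changes of 3.02 and 4.16, adjusted p = 0.00702 and 0.00446). Anxa2, the partner of S100A10, had 7.05 and 7.97 CPM in sham, 14.9 and 15.2 CPM in intra-C and 34.9 and 52.7 CPM in intra-S. It was called in intra-S (log2 fold change 2.54, adjusted p = 0.00614) and not in intra-C (1.01, adjusted p = 0.0609). Anxa5 rose (1.00) and Anxa6 fell (-1.17) in intra-S. Myh9, the heavy chain of nonmuscle myosin bound by S100A4, rose in intra-C (1.46), and Il1a, an interleukin whose export involves S100A13, rose in both (2.60 and 3.39). Plaur, the urokinase receptor, had log2 fold changes of 3.37 in intra-C (adjusted p = 0.0511) and 5.27 in intra-S (adjusted p = 0.0156), with 13.1 and 3.46 CPM in the intra-S livers. Anxa2 and Tagln2, an actin-binding protein, had the patterns most like that of S100a11 over the 6 livers, with root mean square log2 differences of 0.17 and 0.25. Those nearest to S100a10 were Gm19417 and Dynlt1-ps1, with 0.24 and 0.27.

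S100a6, or calcyclin, is known from proliferating and mesenchymal cells. It had 0.788 and 0.702 CPM in sham, 2.34 and 2.44 CPM in intra-C and 8.81 and 27.3 CPM in intra-S, again without overlap of the 3 groups. Such separation of single pairs was common, with 34.4% of all tested genes for intra-C above sham and 21.8% for intra-S above intra-C. For S100a6, the log2 fold changes against sham were as follows. The log2 fold change was 4.59 in intra-S (standard error 0.59, adjusted p = 0.0109), and the 8 alternative fits that kept both livers of each group compared all called it. In intra-C it was 1.68 (standard error 0.55, adjusted p = 0.115), which passed with DESeq2 (adjusted p = 0.0318), with the intra-S livers left out of the fit (adjusted p = 0.0190) and with either one of them left out (adjusted p = 0.00307 and 0.00758). The size in intra-S depended on the livers in the fit, with 3.56 without intra-S liver 2 (adjusted p = 0.000472) and 5.19 without intra-S liver 1 (adjusted p = 0.000131). Without sham liver 1 or 2, the adjusted p in intra-S was 0.108.

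S100a4 was low in sham (0.197 and 0.317 CPM) and in intra-C (1.27 and 1.76 CPM). It had 0.933 CPM in intra-S liver 1 and 52.8 CPM in intra-S liver 2, which are 32 and 2153 counts. A single liver therefore carried its mean of 26.9 CPM. Only 12 of 16370 tested genes differed more between the intra-S livers than S100a4, whose log2 values were 5.75 apart. In intra-S against sham the log2 fold change was 6.68 (standard error 1.78, adjusted p = 0.0618). It was 1.84 without intra-S liver 2 (adjusted p = 0.0728) and 7.66 without intra-S liver 1 (adjusted p = 9.75e-05). DESeq2 (adjusted p = 0.000943) and edgeR without the filter on low counts (adjusted p = 0.0468) called it with both livers. In intra-C against sham the log2 fold change was 2.54 (standard error 1.66, adjusted p = 0.376). It passed where intra-S liver 2 was not in the fit (adjusted p = 0.0187) and where liver 1 was not (adjusted p = 0.00214), with estimates of 2.54 and 2.53.

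The liver with high S100a4 stood apart in further genes. Lgals1, which encodes galectin-1, had 64.7 CPM in intra-S liver 2 and between 2.44 and 7.03 CPM in the other 5 livers, and Emp1, an epithelial membrane protein, had 27.9 CPM there and between 0.665 and 4.40 CPM elsewhere. These were the genes of most like pattern to S100a4, with root mean square log2 differences of 1.03 and 1.05. S100a6 was nearest to Emp1 (0.55) and to Vim, the mesenchymal filament vimentin (0.66), which had 152 CPM in intra-S liver 2 and 44.9 CPM in intra-S liver 1. Krt20, a keratin of intestinal epithelium, had 250 counts (6.13 CPM) in intra-S liver 2 and 0 counts in each of the other 5 livers. It was the only one of 3 listed colon epithelium markers with this pattern. Vil1 had 8 counts (0.196 CPM) in intra-S liver 2, 3 counts in intra-C liver 1 and 0 in the others, and Lgals4 was highest in the sham livers. The fibroblast and stellate markers summed to 207 and 196 CPM in sham, 251 and 236 CPM in intra-C and 373 and 429 CPM in intra-S. Dcn alone gave 280 and 249 CPM of the intra-S sums. Every other listed marker of this set was higher in intra-S liver 2 than in intra-S liver 1, such as Col3a1 (68.8 against 17.1 CPM). In intra-C 0 of 9 were called, and in intra-S 3 of 9 (Col1a1, Col1a2 and Dcn) rose. Of all tested genes, 4.92% and 6.78% were called higher. The part of tumor cells, fibroblasts or other cells in S100a4 and S100a6 was not tested. S100a8 and S100a9, in contrast, were lower in intra-S liver 2 than in intra-S liver 1.

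**Figure D4:**
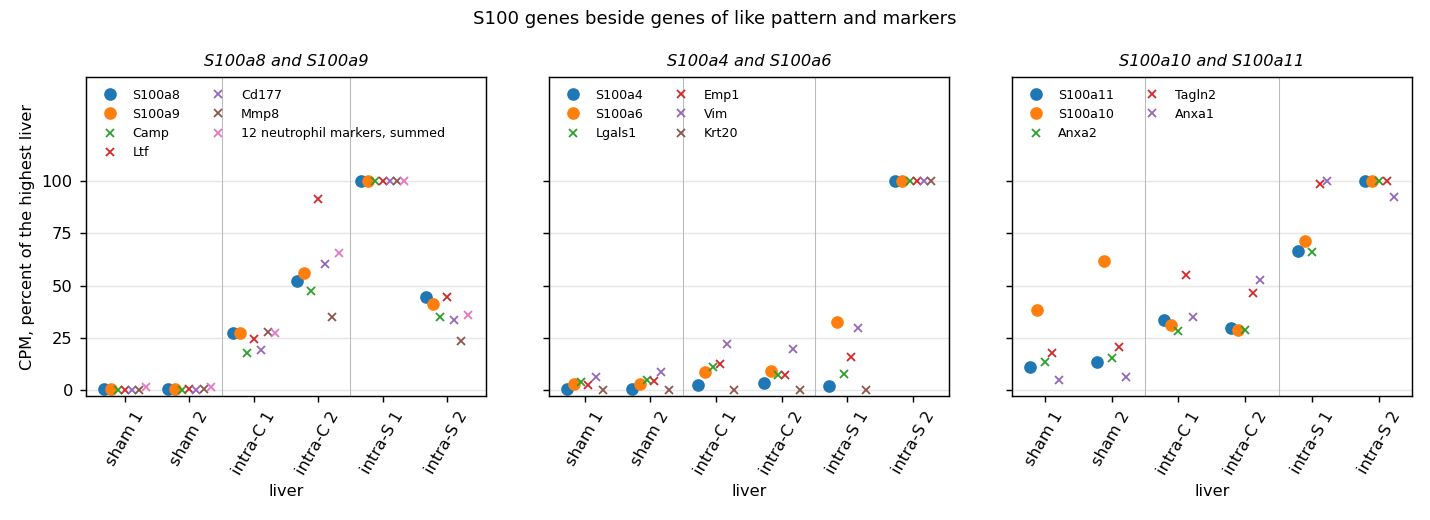
CPM in each of the 6 livers as a percent of the highest liver, for S100 genes (filled circles) and for genes of most like pattern or markers (crosses); vertical lines part the groups. S100a8, S100a9, Camp, Ltf, Cd177, Mmp8 and the marker sum peak in intra-S liver 1, where S100a4 and Krt20 are near 0, whereas S100a4, S100a6, S100a10 and S100a11 peak in intra-S liver 2.

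S100a1 and S100a13 were the members with the narrowest range. S100a1, which regulates calcium pumps and is best known from heart muscle, had 58.3 and 58.8 CPM in sham, 39.4 and 40.7 CPM in intra-C and 50.4 and 44.5 CPM in intra-S. All 4 livers of tumor-bearing mice lay below the sham livers. The log2 fold change was -0.55 in intra-C (standard error 0.18, adjusted p = 0.116) and -0.30 in intra-S (standard error 0.18, adjusted p = 0.308). The value in intra-C passed in 4 of the 8 alternative fits, which were that without the intra-S livers (adjusted p = 0.0170), without TMM scaling (adjusted p = 0.0488) and limma on TPM with either pseudocount (adjusted p = 0.0438 and 0.0433). The nearest patterns were those of Mrpl4, of the mitochondrial ribosome, and Cd81, a tetraspanin, both with a root mean square log2 difference of 0.04. S100a13, which takes part in the export of FGF1 and interleukin-1 alpha, had 9.02 and 7.76 CPM in sham, 5.83 and 6.22 CPM in intra-C and 7.23 and 11.5 CPM in intra-S. Its log2 fold changes of -0.48 in intra-C (adjusted p = 0.345) and 0.16 in intra-S (adjusted p = 0.752) were not called, and the latter changed sign without TMM scaling, to -0.097. Camk1 and Rps16-ps2 had the nearest patterns, both with a root mean square log2 difference of 0.10.

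The intra-S livers were then compared with the intra-C livers directly. All 8 genes had a positive log2 fold change, with a median of 1.13 against 0.03 over all tested genes, and edgeR called 0 of them. It called 0 genes in all, with a smallest adjusted p of 0.113, although an unadjusted p under 0.05 was reached by 1144 genes with higher and 1049 with lower levels. Among these were 4 of the 8, S100a4, S100a6, S100a10 and S100a11. DESeq2 called 240 genes higher and 284 lower, with S100a6 (adjusted p = 0.000101), S100a10 (adjusted p = 0.00384) and S100a11 (adjusted p = 0.00531) among the former. The edgeR estimates were 2.91 for S100a6 (95% interval 1.62 to 4.21), 1.39 for S100a11 (0.73 to 2.06) and 4.15 for S100a4 (0.50 to 7.80). That of S100a4 became -0.70 without intra-S liver 2, and that of S100a6 was 1.88 without this liver (adjusted p = 0.00927) and 3.51 without intra-S liver 1 (adjusted p = 0.0118). In all, edgeR called 3 of the 8 higher without intra-S liver 1 (S100a4, S100a6 and S100a11) and 4 without intra-S liver 2 (S100a6, S100a8, S100a10 and S100a11). Over all genes these fits differed widely, with 24 higher and 31 lower among 17564 without liver 1 and 1312 higher and 1572 lower among 17429 without liver 2. For S100a8 the difference was 0.86 (95% interval -0.28 to 2.01) and for S100a9 0.76 (-0.46 to 1.98), so that a change of either sign was within the interval. Without intra-S liver 1 they were 0.16 and -0.022. For S100a1 it was 0.25 (-0.19 to 0.68) and for S100a13 0.64 (-0.07 to 1.34). In 5 of the 8 genes both intra-S livers lay above both intra-C livers, as in 21.8% of all tested genes. The summed level of S100a4, S100a6, S100a10 and S100a11, in TPM without TMM scaling, was 64.9 and 97.6 TPM in the sham livers, 77.1 and 77.5 TPM in the intra-C livers and 157 and 438 TPM in the intra-S livers.

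The remaining S100 genes of the table did not follow calprotectin. S100a16 had 17.4 and 22.3 CPM in sham, 12.3 and 15.2 CPM in intra-C and 20.8 and 17.8 CPM in intra-S, with log2 fold changes of -0.53 (adjusted p = 0.199) and -0.04 (adjusted p = 0.928). S100g, the calbindin that carries calcium through intestinal epithelium and lies on the X chromosome, fell from 4.68 and 3.51 CPM in sham to 0.280 and 0.186 CPM in intra-C and to 0.379 and 0.147 CPM in intra-S. Its log2 fold changes were -4.11 (adjusted p = 0.0182) and -3.96 (adjusted p = 0.0154). S100a14 was too low to be tested.

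Of 9 other EF-hand proteins tested, which include the calmodulin genes, 0 were called in either comparison with sham, a count near the 4.92% and 6.78% of all tested genes called higher and the 2.38% and 3.95% called lower. Their median log2 fold changes were 0.17 and 0.18. Among 11 transcription factors of myeloid cells, 4 rose and 1 fell in intra-C and 8 rose and 0 fell in intra-S, with median log2 fold changes of 1.82 and 2.76 beside 0.01 and 0.04 over all tested genes. Spi1, which encodes PU.1, rose by 2.02 and 2.39 and Irf8 by 1.61 and 1.98 on the log2 scale. Stat3, which mediates interleukin-6 signals, rose by 1.82 in intra-C and by 1.03 in intra-S. Cebpe, a factor of granule gene expression, had 0 counts in both sham livers and between 0.736 and 2.60 CPM in the others. Cebpa, which hepatocytes also express, fell by 1.70 in intra-C. Fos and Jun, whose proteins form AP-1, had 51.6 and 210 CPM in intra-S liver 1 but 5.37 and 23.2 CPM in intra-S liver 2, so that 1 liver carried most of their mean.

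Genes around the S100 genes were read beside them. Between S100a1 and S100a10, 6 tested genes outside the family were measured, and edgeR called 0 of them in any comparison, nor were any of the 20 in that stretch with 300 kb added on either side. With 4.92% and 6.78% of all tested genes called higher in the comparisons with sham, a count of 0 among so few genes does not set them apart from the rest. The 6 were also low, with 49 to 378 counts summed over the livers. The large fitted values of Gm17742 and Pglyrp3, the latter a peptidoglycan recognition protein, rest on 0 counts in both sham livers and between 1 and 46 counts in the others. Within the dense group, S100a8 and S100a9 lie 22595 bases apart. S100a4 and S100a6, 6848 bases apart, were high together in intra-S liver 2, whereas in intra-S liver 1 S100a6 was above and S100a4 below both intra-C livers.

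**Figure D5:**
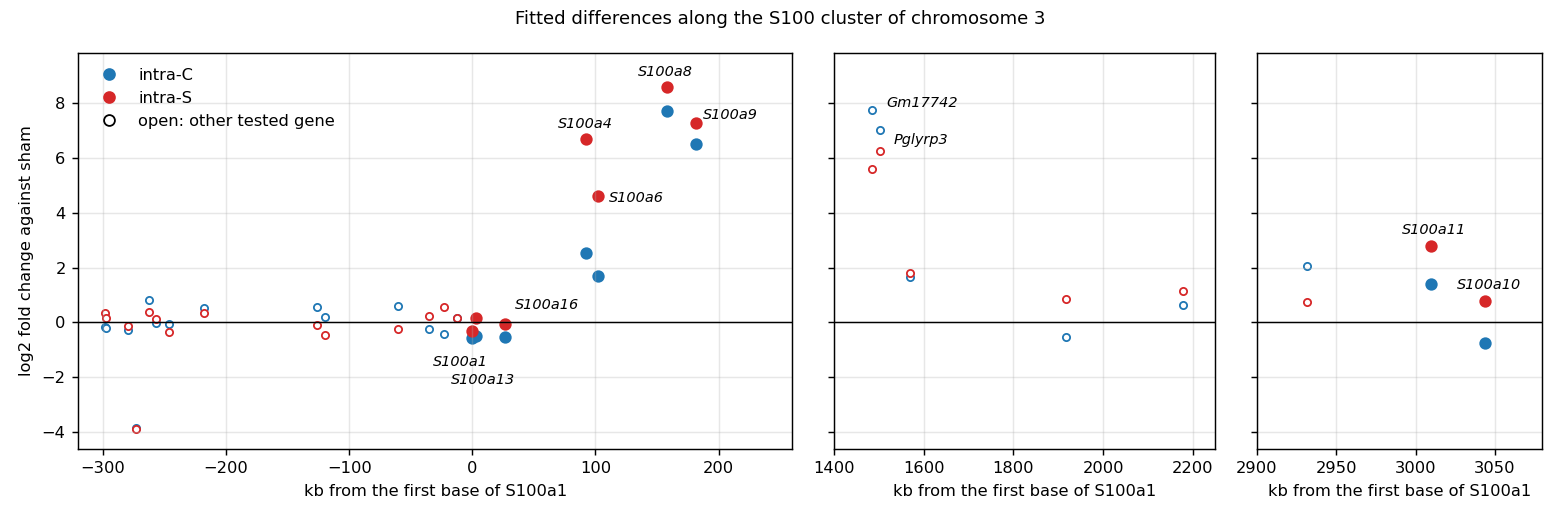
Fitted log2 fold change against sham of each tested gene by its distance in kb from the lowest coordinate of S100a1, in 3 panels with scales of their own that leave out stretches without tested genes; blue is intra-C, red intra-S, filled points are S100 genes, S100a16 included, and open points other genes. S100a8 and S100a9 stand high in both colors beside S100a1 and S100a13 near 0, and the open points, of which none was called, include Gm17742 and Pglyrp3 at few counts.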

How the data were processed

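Livers were assigned to groups by their labels. The authors purified polyadenylated RNA, aligned reads to mm10 with HISAT2 2.1.0 and counted uniquely mapped exon reads with featureCounts (Subread 2.0.6), per the labels and the study's methods. The gene annotation and strand setting are not given in the sources used here. The authors deposited raw counts per gene and liver, and TPM values that they derived from them.

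The counts were tested with edgeR 4.0.16 (R 4.3.3): quasi-likelihood test, TMM, filterByExpr with a count minimum of 10, 1 fit over 6 livers, and Benjamini-Hochberg adjustment over 16370 genes. Standard errors come from the F statistic. TPM values were used for levels between genes. With 2 livers per group no exact permutation test can reach 0.05, and p-values measure the spread between these livers only. On simulated counts for intra-C against sham (15140 genes tested), 41% of genes changed 4-fold and 84% of those changed 16-fold were recovered, and 5.30% of 132 calls were false.

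Named genes were the 8 members, other listed S100 genes, called members of hand-written pathway lists, cell type markers, and for each member the 2 tested genes outside the family, with a mean of at least 5 CPM, whose centered log2 CPM (prior count 2) differed least over the 6 livers. Ager and the neighboring genes Gm17742 and Pglyrp3 were named in addition, although not called. The members and lists were chosen with earlier results of these data known. Markers of endothelial cells (3 of 6 called higher in intra-C, 4 of 6 in intra-S), cholangiocytes (0 and 1 of 5), hepatocytes (0 higher, and Cyp2e1 lower in intra-S), lymphocytes (0 of 9) and proliferation (1 and 4 of 6) were also counted. Of all tested genes, 4.92% were called higher and 2.38% lower in intra-C, and 6.78% and 3.95% in intra-S.

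Alternatives were DESeq2 1.42.0, no filter, a fit of just the pair of groups, a block for the replicate number, unscaled library size, TMM computed without the 100 most abundant genes, limma 3.58.1 on log2(TPM + 1) and log2(TPM + 0.1), and each liver left out. Protein sequences were not used here.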

Additional observations from a re-analysis of the deposited data

Results flagged for a closer look

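S100a10 was flagged because the 2 tumor groups lay on opposite sides of the sham livers. Of all tested genes, 287 (1.75%) had this order and 316 (1.93%) the reverse order. Both intra-C livers (11.4 and 10.5 CPM) were below and both intra-S livers (26.2 and 36.8 CPM) above the sham livers (14.1 and 22.7 CPM). The log2 difference between intra-S and intra-C was 1.53, with an adjusted p of 0.285 from edgeR's quasi-likelihood test and of 0.00384 from DESeq2. Over the other alternatives and livers left out its adjusted p was between 0.0253 and 0.760.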

How the results depend on the processing

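Of 336 alternative values of single S100 genes, 285 kept direction and side of the threshold, 27 newly passed, 18 no longer passed and 6 changed sign. The sign changes were those of S100a13 in intra-S against sham, -0.097 without TMM, -0.16 with limma on log2(TPM + 1), -0.17 on log2(TPM + 0.1) and -0.21 to 0.46 with livers left out, and, in intra-S against intra-C with livers left out, of S100a9 (-0.022 to 1.37) and S100a4 (-0.70 to 5.13). With only the 2 groups compared, 6 S100 genes were called in intra-C against sham, with S100a1 lower, among 4771 genes, and 392 genes were called in intra-S against sham. DESeq2 called 2819 genes in intra-C against sham, 3530 in intra-S against sham and 524 in intra-S against intra-C, with 3 S100 genes in the last. With 1 liver left out, 0 to 6 S100 genes were called in intra-C against sham (0 to 4658 genes in all), 0 to 6 in intra-S against sham (0 to 5693 genes) and 0 to 4 in intra-S against intra-C (0 to 2884 genes). The value of 0 in both comparisons with sham came from leaving out either sham liver, and there and wherever a group kept 1 liver, that liver was assumed to vary like the others. Without intra-S liver 1 or 2, 6 S100 genes were called in intra-C against sham. The cause of these differences was not tested. With the replicate number as a block, 3 and 4 S100 genes were called among 932 and 1507 genes. The numbers gave no pairing, since same-numbered livers correlated by -0.03 to 0.08 over 2 numbers. Without TMM, S100a8 and S100a9 kept their calls, and the sham values of S100a4 and S100a8, at 8 to 28 counts, limit the precision of their fold changes.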
